A study of Mus musculus with 12 samples.

Results

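Complement and coagulation genes are described here: 53 of the 25540 gene symbols counted in mouse liver mRNA, taken as a fixed list of symbols and not by their values. The list holds 25 complement components, regulators and receptors and 28 genes of clotting and of clot breakdown (fibrinolysis). By textbook knowledge of their main source, 38 are made by hepatocytes (4 of them also by other liver cells), 7 by macrophages and other myeloid cells, 5 by endothelial cells and 3 elsewhere. All 53 symbols were found, and 52 had enough counts to be tested. The exception was Cfd, complement factor D, a product mainly of fat cells, with 5 counts over all 12 libraries. Livers of BALB/c mice were compared in 4 groups of 3 libraries, each group injected with iExos, taken from the title of the study as exosomes, the small vesicles that cells release. The loads were siSTAT3, siCntrl, mASO STAT3 and mASO Scrbl. The names follow common usage for small interfering RNA (si, siRNA) and antisense oligonucleotides (ASO), and the m is left unexplained by the labels. The title names STAT3, a transcription factor, as the target and liver fibrosis as the disease. The labels give neither the age of the mice, nor any liver injury shared by all groups, nor the cells that gave the exosomes. Uninjected livers were not analysed here. The siRNA arm is siSTAT3 over siCntrl, and the mASO arm is mASO STAT3 over mASO Scrbl.

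Complement is a set of plasma proteins that tag and lyse microbes and damaged cells. The classical pathway starts with C1q, the lectin pathway with mannose-binding lectins, and the alternative pathway amplifies either, and all meet at C3 and end in a pore of C5b to C9. Coagulation runs from tissue factor or from the contact system through serine proteases to thrombin, which cuts fibrinogen into fibrin, and plasmin dissolves the clot again. Hepatocytes secrete most of these proteins, whereas C1q comes from macrophages, and von Willebrand factor, factor VIII, thrombomodulin and tissue plasminogen activator come largely from endothelium. Several of the genes, the 3 fibrinogen chains above all, are acute-phase genes that interleukin 6 induces through STAT3 in rodent and human liver.

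The libraries held 39844158 to 57926887 counts in siSTAT3, 55406038 to 67791159 in siCntrl, 50024153 to 61804382 in mASO STAT3 and 64619765 to 66498894 in mASO Scrbl. Levels are CPM, counts scaled to a common library total after TMM scaling, which corrects for the make-up of a library. A gene is called higher or lower where the edgeR adjusted p is under 0.05 over all 15720 genes tested. TMM factors were 0.804 to 0.901 in the libraries labelled STAT3 and 1.11 to 1.27 in the controls, so the scaling matters: with library totals in place of TMM, the median log2 fold change of all tested genes was −0.53 in the siRNA arm and −0.63 in the mASO arm, instead of −0.04 and −0.05. Group names are the labels of the load. The mRNA of Stat3, the named target, did not pass the test in either arm (−0.03 and 0.05 on the log2 scale, edgeR adjusted p = 0.868 and 0.792), so it does not check those labels. Whether the 3 libraries of a group are separate animals is not stated, so the spread behind the p-values may be technical.

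In both arms, most hepatocyte-made complement and clotting genes were higher in the STAT3-labelled livers, and many members made by macrophages or endothelium were lower. Where a pair of log2 fold changes is given, the siRNA arm comes before the mASO arm. In the siRNA arm 24 members were higher and 9 lower, where 45.7% of all tested genes were called, 22.4% higher and 23.4% lower. In the mASO arm 29 members were higher and 8 lower, against 43.8% of all tested genes called, 21.3% higher and 22.5% lower. With library totals 18 members were higher and 17 lower in the siRNA arm (10.5% and 46.2% of all tested genes), and 22 were higher and 12 lower in the mASO arm (9.7% and 50.5%). Higher calls then made up 51.4% of all calls instead of 72.7% in the siRNA arm and 64.7% instead of 78.4% in the mASO arm. Of the 52 tested members, 24 were higher in both arms, 8 were lower in both and 0 were called in opposite directions. C3, C8a, Cfi, C4bp and Cpb2 were called higher in the mASO arm alone, and C1qc was called lower in the siRNA arm alone, though no member passed the test of the difference between the arms. The 14 members called in neither arm were C1qa, C1qb, Masp1, Cfb, Cfp, C6, C9, F3, F11, F8, Fga, Fgb, Fgg and Pros1. Libraries of the 2 groups did not overlap for 26 members on the higher side and 8 on the lower side in the siRNA arm, where 25.5% and 27.5% of all tested genes did not overlap, and for 31 and 8 in the mASO arm, against 27.2% and 29.6%.

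**Figure D1:**
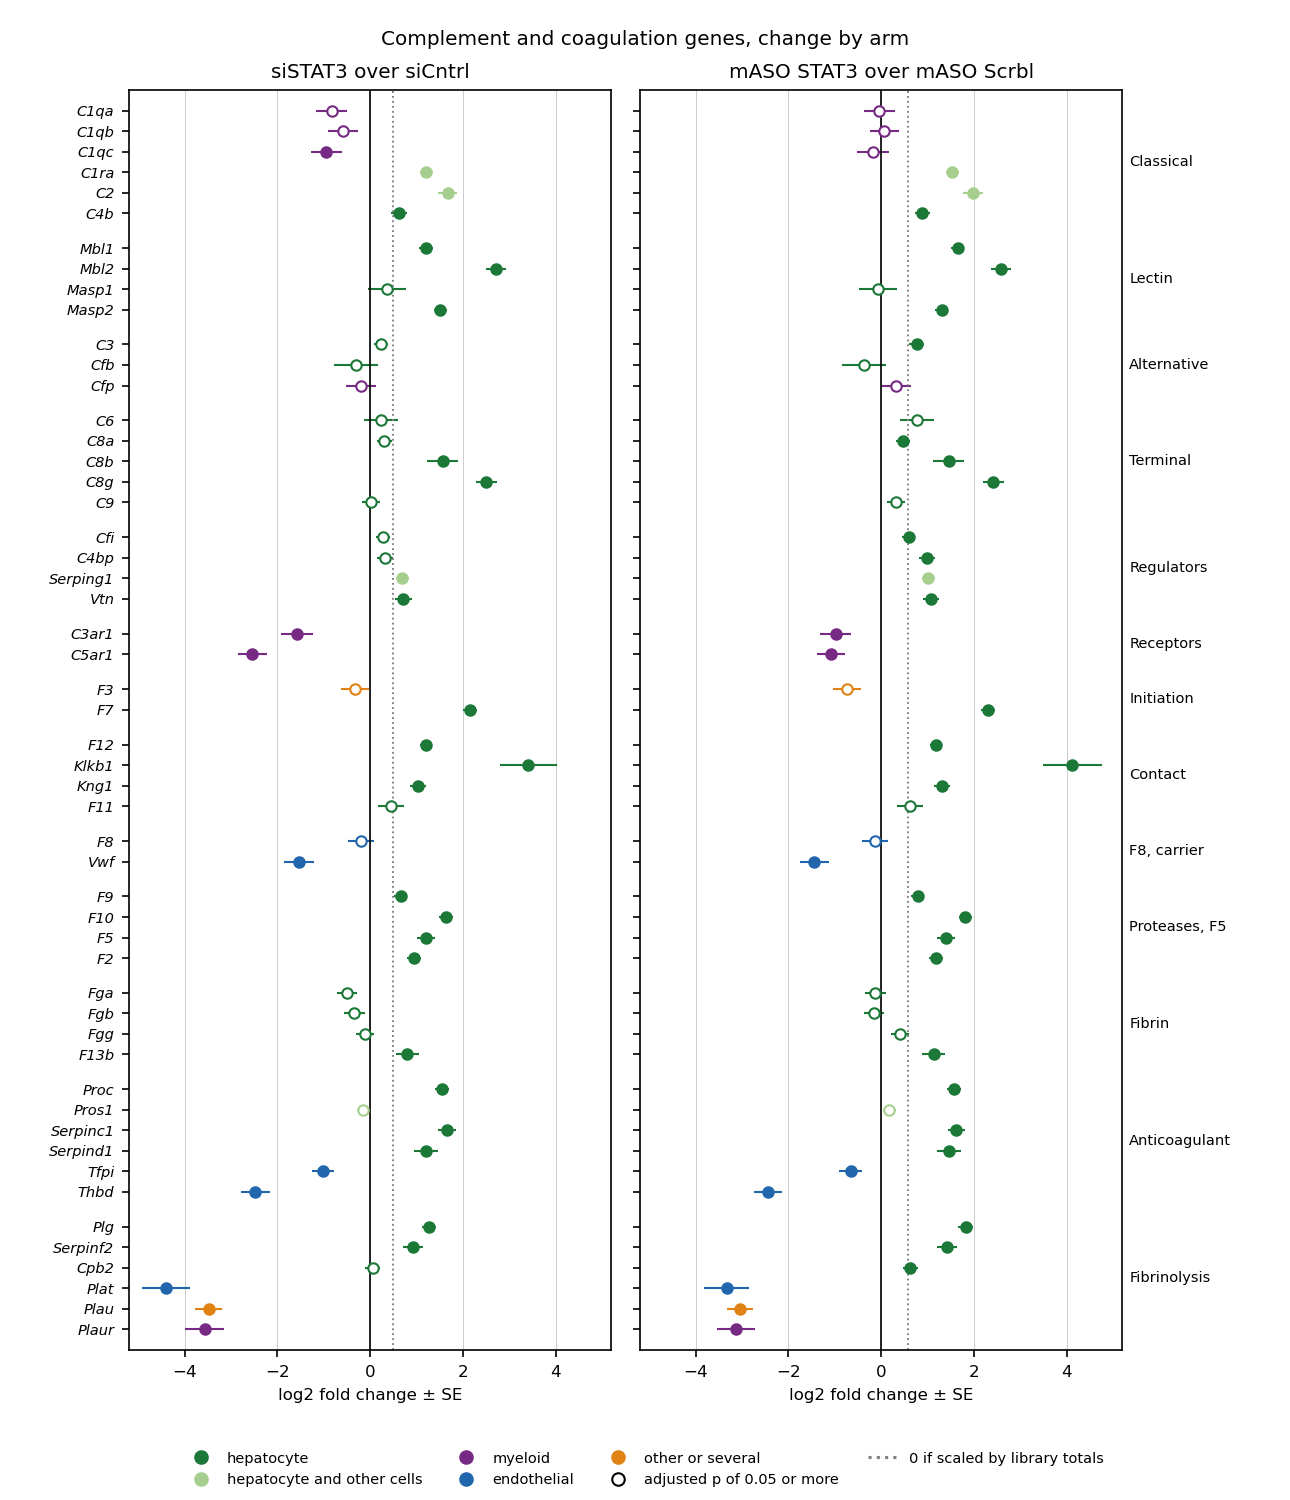
Log2 fold change ± SE (horizontal axis) of the 52 tested members in the siRNA arm (left panel) and the mASO arm (right panel), grouped by role and coloured by main cell source, with filled points for calls. Green hepatocyte-made members lie mostly right of 0 and purple, blue and orange members mostly left of it, with 24 higher and 9 lower calls in the siRNA arm, and 29 higher and 8 lower calls in the mASO arm; the dotted line shows where 0 would lie with library totals, which leave C8a at −0.11 in the mASO arm and give 18 higher and 17 lower, and 22 and 12.

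Sorted by source, every member called higher was hepatocyte-made and every member called lower was not, except that library totals add 5 and 3 hepatocyte-made members called lower in the siRNA and mASO arms. Of the 38 hepatocyte-made members, 24 were higher and 0 lower in the siRNA arm, with a median log2 fold change of 0.87 beside −0.04 over all tested genes, and 29 were higher and 0 lower in the mASO arm, with a median of 1.15 beside −0.05. With library totals those medians were 0.38 and 0.57, and 18 were higher and 5 lower in the siRNA arm and 22 higher and 3 lower in the mASO arm. Of the 14 tested members with another main source, 0 were higher and 9 lower in the siRNA arm (median −1.28), and 0 were higher and 8 lower in the mASO arm (median −0.86). Among them 4 of 5 endothelial members were lower in both arms, all except F8. Of 7 myeloid members, 4 were lower in the siRNA arm and 3 in the mASO arm. In whole liver, fewer cells of a type and less RNA per cell cannot be told apart. Markers of those cells moved unevenly. The summed levels of hepatocyte and of monocyte markers did not overlap between the groups of either arm. Those of endothelial and of Kupffer cell markers overlapped in both arms. Of 11 hepatocyte markers measured, 7 were higher in the siRNA arm and 8 in the mASO arm, and none was lower. Their summed level ran over 137698 to 148425 CPM in siSTAT3, 57027 to 96513 in siCntrl, 120663 to 160660.0 in mASO STAT3 and 62839.7 to 92508 in mASO Scrbl. Of 12 endothelial markers, 6 were lower in the siRNA arm, and 3 were lower and 1 higher in the mASO arm, with a sum of 169.8 to 247 CPM in siSTAT3, 233 to 282 in siCntrl, 170.4 to 288 in mASO STAT3 and 212 to 262 in mASO Scrbl. Of 7 Kupffer cell markers, which stand for the resident macrophages of the liver, 1 was higher and 1 lower in the siRNA arm, and 2 were higher and 1 lower in the mASO arm, and their sum was 311 to 472 CPM in siSTAT3, 206 to 516 in siCntrl, 369.7 to 412 in mASO STAT3 and 207 to 453 in mASO Scrbl. Of 10 markers of monocytes and infiltrating macrophages, 8 were lower in the siRNA arm and 5 in the mASO arm. Their sum was 294 to 395 CPM in siSTAT3, 1303 to 2416 in siCntrl, 303 to 364 in mASO STAT3 and 1156 to 1981 in mASO Scrbl, with no overlap between the libraries labelled STAT3 and the controls. None of these markers was at 0 in all libraries, and the part of cell numbers in the members' changes was not tested.

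**Figure D2:**
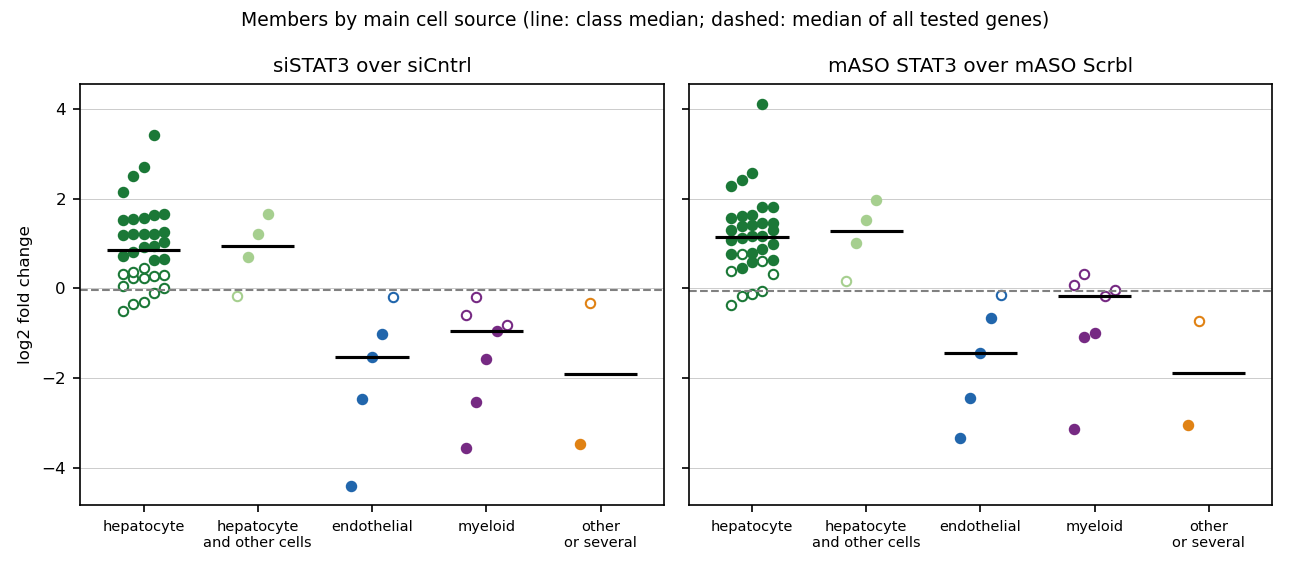
Log2 fold change (vertical axis) of each tested member by main cell source in the siRNA arm (left) and the mASO arm (right), with filled points for calls, a line at each class median and a dashed line at the median of all tested genes. Hepatocyte-made members centre above the dashed line and endothelial, myeloid and other members below it, and with library totals the medians over all 38 hepatocyte-made members fall to 0.38 and 0.57 but keep their sign.

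The changes within the hepatocyte-made class were unequal, and ratios of members within a library, which no scaling factor can move, show it. Per 100 CPM of summed hepatocyte markers, Mbl2 was 0.683 ± 0.0438 in siSTAT3 and 0.188 ± 0.0275 in siCntrl (SD, n = 3), and 0.733 ± 0.125 in mASO STAT3 and 0.235 ± 0.0655 in mASO Scrbl. F7 was 0.164 ± 0.0258 in siSTAT3 and 0.0697 ± 0.0165 in siCntrl, and 0.156 ± 0.0296 in mASO STAT3 and 0.0596 ± 0.00948 in mASO Scrbl. Both genes therefore stood higher against the summed hepatocyte markers in each library labelled STAT3 than in any control of its arm. The highest log2 fold changes of single hepatocyte markers were 3.04 and 3.07, above those of both genes. Fga went the other way, at 2.29 ± 0.424 in siSTAT3 and 6.31 ± 2.85 in siCntrl, and at 2.11 ± 0.637 in mASO STAT3 and 4.35 ± 1.22 in mASO Scrbl. The groups of Mbl2, F7 and Fga did not overlap, and each exact two-sided permutation p was 0.1, the smallest that 3 libraries against 3 allow, so no ratio given here can reach 0.05. Against the same markers Fgb was 0.440 and 0.476 times its control level in the siRNA and mASO arms, without overlap. Fgg was 0.509 and 0.708 times, with overlap in the mASO arm (exact permutation p = 0.2). The summed markers were higher in the libraries labelled STAT3 and no fibrinogen chain was called, so these ratios also hold the rise of the markers.

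Among complement members Mbl2 and C8g had the largest rises in both arms. Mbl2, a mannose-binding lectin that recognises sugars on microbes, stood at 876, 1001 and 1021 CPM in siSTAT3 against 172, 94.5 and 174 CPM in siCntrl. It stood at 969.8, 1029.7 and 1176 CPM in mASO STAT3 against 187, 187 and 155 CPM in mASO Scrbl. The lowest library labelled STAT3 exceeded the highest control several-fold in each arm. Mbl2 changed by 2.72 ± 0.22 on the log2 scale in the siRNA arm (edgeR adjusted p = 5.3e-07) and by 2.58 ± 0.21 in the mASO arm (edgeR adjusted p = 8.53e-07). Mbl1, the other mouse mannose-binding lectin, was at 165, 185 and 144 CPM in siSTAT3 against 73.02, 59.02 and 81.9 CPM in siCntrl, and at 169.8, 189 and 186 CPM in mASO STAT3 against 59.5, 52.1 and 62.1 CPM in mASO Scrbl. Its groups did not overlap either, with log2 fold changes of 1.21 ± 0.14 (edgeR adjusted p = 1.93e-05) and 1.65 ± 0.15 (edgeR adjusted p = 1.49e-06). Mbl2 outpaced Mbl1, since the ratio of Mbl2 to Mbl1 CPM was 5.93 ± 1.01 in siSTAT3 and 2.03 ± 0.389 in siCntrl (SD, n = 3) and 5.83 ± 0.453 in mASO STAT3 and 3.08 ± 0.555 in mASO Scrbl, without overlap (exact p = 0.1 in each arm). Masp2, the protease that mannose-binding lectins use to cut C4 and C2, was at 172, 156 and 173 CPM in siSTAT3 against 69.1, 54.7 and 50.8 CPM in siCntrl, and at 129, 159 and 159 CPM in mASO STAT3 against 65.2, 52.996 and 62.7 CPM in mASO Scrbl. All 6 libraries labelled STAT3 lay above all 6 controls, and the log2 fold changes were 1.52 ± 0.15 (edgeR adjusted p = 2.98e-06) and 1.31 ± 0.15 (edgeR adjusted p = 1.02e-05). The annotated exons of Masp2 share 54.9% of their bases with Tardbp on the other strand, a gene with 83261 counts here, so its level is uncertain unless the counting used strand. Masp1, the companion protease, passed in neither arm (0.37 and −0.06 on the log2 scale), with overlapping groups.

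In the classical pathway the protease genes rose, while the recognition unit C1q did not. C2, which forms the catalytic part of the C3 convertase, was at 50.4, 66.6 and 55.1 CPM in siSTAT3 against 13.9, 14.5 and 25.7 CPM in siCntrl, and at 56.1, 49.7 and 57.9 CPM in mASO STAT3 against 14.6, 12.6 and 14.4 CPM in mASO Scrbl. The groups did not overlap in either arm. C2 changed by 1.67 ± 0.21 on the log2 scale in the siRNA arm (edgeR adjusted p = 2.62e-05) and by 1.98 ± 0.21 in the mASO arm (edgeR adjusted p = 6.72e-06). C1ra, a protease of the C1 complex, was at 311, 262 and 313 CPM in siSTAT3 against 123, 121 and 140.2 CPM in siCntrl, and at 255, 293 and 317 CPM in mASO STAT3 against 114, 90.03 and 95.1 CPM in mASO Scrbl. Every library labelled STAT3 again lay above every control, with log2 fold changes of 1.21 ± 0.14 (edgeR adjusted p = 1.47e-05) and 1.53 ± 0.14 (edgeR adjusted p = 2.01e-06). Reads of C1ra and C2 may be shared with the similar gene C1rb and with overlapping transcripts. C4b, the mouse C4 that C1 and the lectin proteases cut, rose less (0.62 and 0.89), and both of its calls were lost with library totals (edgeR adjusted p = 0.539 and 0.113).

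C1q is built from the chains of C1qa, C1qb and C1qc, which macrophages express together. C1qa was at 94.6, 99.8 and 108 CPM in siSTAT3 against 80.9, 291 and 162 CPM in siCntrl, and at 116, 104 and 99.5 CPM in mASO STAT3 against 131, 83.2 and 114 CPM in mASO Scrbl. The siCntrl libraries spread widely, from below to well above the siSTAT3 libraries, and the groups overlapped in both arms. C1qb was at 73.5, 87.4 and 100.1 CPM in siSTAT3 against 67.98, 212 and 111 CPM in siCntrl, and at 85.5, 83.4 and 78.5 CPM in mASO STAT3 against 95.7, 61.1 and 79.5 CPM in mASO Scrbl, with the same wide spread in siCntrl. C1qc was at 67.6, 62.2 and 91.1 CPM in siSTAT3 against 70.3, 227 and 128 CPM in siCntrl, and at 81.1, 72.5 and 71.6 CPM in mASO STAT3 against 109, 61.4 and 84.4 CPM in mASO Scrbl. Its siCntrl libraries overlapped the siSTAT3 libraries too. C1qc was the one chain called, at −0.94 ± 0.34 in the siRNA arm (edgeR adjusted p = 0.0387), and the call was lost in 11 alternatives, among them leaving out siCntrl replicate 2 (−0.43, edgeR adjusted p = 0.228). Without siCntrl replicate 1, C1qa (−1.17, edgeR adjusted p = 0.00117) and C1qb (−0.89, edgeR adjusted p = 0.0107) were called lower as well, and so they were with library totals (−1.36 and −1.12, edgeR adjusted p = 0.00805 and 0.0156). The mASO log2 fold changes of C1qa, C1qb and C1qc were −0.04, 0.07 and −0.18, with 0 called. Shares of the 3 chains were taken per kilobase of exon, and that of C1qc was slightly lower in the libraries labelled STAT3. C1qa made up 45.2 ± 2.28 in siSTAT3 and 46.5 ± 2.17 in siCntrl percent of the 3 chains, and 47.1 ± 0.765 in mASO STAT3 and 47.5 ± 0.953 in mASO Scrbl percent, with overlap. C1qc made up 17.7 ± 2.03 in siSTAT3 and 20.3 ± 0.415 in siCntrl percent, and 17.9 ± 0.322 in mASO STAT3 and 19.7 ± 1.02 in mASO Scrbl percent, lower without overlap in both arms (exact p = 0.1 in each). The ratio of C1qc to C1qb CPM was 0.777 and 0.852 times its control level, also without overlap (exact p = 0.1 in each arm). Against the summed Kupffer cell markers, C1qa was 0.609 and 0.718 times its control level in the siRNA and mASO arms, and C1qc 0.543 and 0.659 times, without overlap. C1qb was 0.699 and 0.773 times, with overlap in both arms. The summed markers themselves overlapped between the groups.

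Among the terminal components, the 3 chains of C8 separated. C8 joins C5b to C7 and starts the pore. C8a and C8b encode its alpha and beta chains, and C8g its gamma chain, a lipocalin bound to the alpha chain. C8g was at 449, 531 and 403 CPM in siSTAT3 against 93.4, 54.1 and 95.5 CPM in siCntrl, and at 543, 346 and 429.7 CPM in mASO STAT3 against 84.2, 74.6 and 88.6 CPM in mASO Scrbl. All libraries labelled STAT3 were several-fold above all controls. C8g changed by 2.51 ± 0.23 on the log2 scale in the siRNA arm (edgeR adjusted p = 1.73e-06) and by 2.41 ± 0.23 in the mASO arm (edgeR adjusted p = 2.24e-06). C8b was at 210.2, 115 and 164 CPM in siSTAT3 against 80.1, 31.1 and 53.9 CPM in siCntrl, and at 104, 179 and 161 CPM in mASO STAT3 against 61.6, 59.7 and 40.7 CPM in mASO Scrbl. It was also without overlap in either arm, at 1.57 ± 0.33 (edgeR adjusted p = 0.00216) and 1.45 ± 0.33 (edgeR adjusted p = 0.00360). C8a was at 652, 625 and 509 CPM in siSTAT3 against 555, 419 and 468 CPM in siCntrl, and at 462, 563 and 619.5 CPM in mASO STAT3 against 433, 377 and 381 CPM in mASO Scrbl. Its siRNA groups overlapped and its mASO groups nearly touched, and the log2 fold changes were 0.31 ± 0.16 (edgeR adjusted p = 0.127) and 0.47 ± 0.16 (edgeR adjusted p = 0.0284). With library totals the mASO value of C8a turned to −0.11 (edgeR adjusted p = 0.543), and the call was also lost without mASO STAT3 replicate 2 or 3 and without mASO Scrbl replicate 2 or 3. The shares of the summed C8 mRNA held by C8g and C8a differed without overlap in both arms. Per kilobase of exon, C8g gave 53.4, 62.1 and 56.9 percent in siSTAT3 against 25.4, 22.1 and 29.9 percent in siCntrl of the summed chains, and 68.4, 50.7 and 55.2 percent in mASO STAT3 against 28.3, 28.2 and 32.97 percent in mASO Scrbl. C8a gave 30.5 ± 1.24 in siSTAT3 and 64.2 ± 5.47 in siCntrl percent (SD, n = 3), and 30.2 ± 5.45 in mASO STAT3 and 58.8 ± 0.764 in mASO Scrbl percent. Per kilobase of exon, the leading chain was thus C8g in the libraries labelled STAT3 and C8a in the controls. That swap rests on the exon lengths. The ratio of C8g to C8a CPM was 0.689, 0.849 and 0.791 in siSTAT3 and 1.17, 0.614 and 0.694 in mASO STAT3. By CPM, C8a therefore led in all of these libraries except mASO STAT3 replicate 1. C6 and C9, which extend the pore, were called in neither arm (0.23 and 0.77 for C6, 0.02 and 0.31 for C9), though C6 was called higher in the mASO arm without mASO Scrbl replicate 1 (1.26, edgeR adjusted p = 0.0136).

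**Figure D3:**
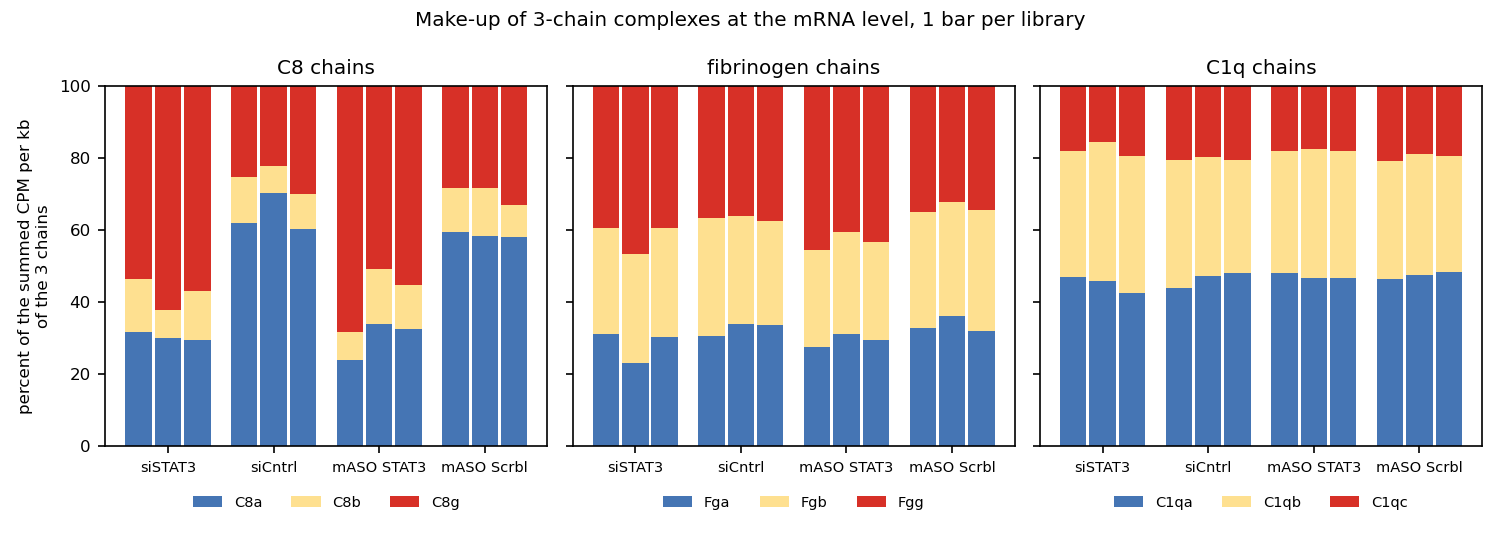
Percent of the summed CPM per kilobase of exon (vertical axis) given by each chain of C8, fibrinogen and C1q, with 1 bar per library and 3 libraries per group. C8g takes 50.7 to 68.4 percent of the C8 chains in the libraries labelled STAT3 and 22.1 to 33.0 percent in the controls, while the bars of fibrinogen and C1q differ much less. The mean Fgg share of fibrinogen is 41.8 percent in siSTAT3 and 36.7 in siCntrl, and 43.1 in mASO STAT3 and 33.9 in mASO Scrbl, without overlap. The Fga and Fgb shares are lower without overlap in the mASO arm and overlap in the siRNA arm.

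C3, on which all complement pathways meet, had the highest level per kilobase of exon of all members in every group, at 2552 CPM per kb in siSTAT3, 2170.2 in siCntrl, 2598 in mASO STAT3 and 1528 in mASO Scrbl. C3 changed by 0.23 ± 0.16 on the log2 scale in the siRNA arm (edgeR adjusted p = 0.243) and by 0.77 ± 0.16 in the mASO arm (edgeR adjusted p = 0.00152). The mASO call was lost with library totals (0.19, edgeR adjusted p = 0.291). Cfb, the protease of the alternative convertase, and Cfp, the myeloid-made properdin that stabilises it, passed in neither arm (−0.30 and −0.37 for Cfb, −0.19 and 0.32 for Cfp). Of the annotated exon bases of Cfb, 79.5% are shared with another transcript on the same strand that was not among the counted symbols, so the level of Cfb is uncertain. The regulators rose moderately. Serping1, the C1 inhibitor, had log2 fold changes of 0.70 and 1.02 and Vtn, vitronectin, which binds the terminal complex, 0.72 and 1.08, each called in both arms. Cfi, the protease that inactivates C3b and C4b, and C4bp, its cofactor for C4b, were called in the mASO arm alone, at 0.28 and 0.59 and at 0.32 and 0.99 in the siRNA and mASO arms. With library totals Serping1 and Vtn were no longer called in the siRNA arm (edgeR adjusted p = 0.280 and 0.214), nor was Cfi in the mASO arm (edgeR adjusted p = 0.954).

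Both anaphylatoxin receptors, which let myeloid cells sense the fragments C3a and C5a, fell. C5ar1 was at 0.966, 0.952 and 1.29 CPM in siSTAT3 against 3.77, 7.12 and 7.70 CPM in siCntrl, and at 2.31, 1.98 and 1.45 CPM in mASO STAT3 against 4.70, 3.42 and 4.02 CPM in mASO Scrbl. No library labelled STAT3 reached the lowest control of its arm. C5ar1 changed by −2.54 ± 0.31 on the log2 scale in the siRNA arm (edgeR adjusted p = 2.46e-05) and by −1.08 ± 0.29 in the mASO arm (edgeR adjusted p = 0.00888). C3ar1 was at 5.71, 7.10 and 5.47 CPM in siSTAT3 against 9.88, 29.1 and 15.8 CPM in siCntrl, and at 4.92, 7.36 and 4.59 CPM in mASO STAT3 against 10.97, 8.44 and 14.01 CPM in mASO Scrbl. These groups did not overlap, with log2 fold changes of −1.58 ± 0.34 (edgeR adjusted p = 0.00209) and −0.98 ± 0.34 (edgeR adjusted p = 0.0296). The mASO call was lost with limma voom and without mASO STAT3 replicate 1 or 3 or mASO Scrbl replicate 1 or 3 (edgeR adjusted p up to 0.107). Against the summed Kupffer cell markers, C5ar1 was 0.169 and 0.340 times its control level in the siRNA and mASO arms, and C3ar1 0.347 and 0.366 times. Against the summed markers of monocytes and infiltrating macrophages, C3ar1 was instead 1.84 and 2.31 times its control level, and C5ar1 0.901 and 2.14 times. In these libraries the sum of those markers thus fell further than C3ar1 did. Single markers of that list ran from −4.13 to 0.15 and from −3.75 to 0.07 on the log2 scale. The list includes Spp1, which is also a cholangiocyte marker. The groups overlapped only for C5ar1 in the siRNA arm against the monocyte markers.

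Clotting starts when tissue factor meets factor VII. F7, the hepatocyte-made protease, was at 211, 268 and 216 CPM in siSTAT3 against 50.9, 48.9 and 56.3 CPM in siCntrl, and at 199, 219.8 and 256 CPM in mASO STAT3 against 52.4, 39.8 and 45.2 CPM in mASO Scrbl. The 6 libraries labelled STAT3 formed a tight band far above the 6 controls. F7 changed by 2.16 ± 0.15 on the log2 scale in the siRNA arm (edgeR adjusted p = 2.19e-07) and by 2.30 ± 0.15 in the mASO arm (edgeR adjusted p = 1.47e-07). F3, tissue factor itself, made mainly by perivascular cells, passed in neither arm (−0.33 ± 0.30 (edgeR adjusted p = 0.405) and −0.73 ± 0.30 (edgeR adjusted p = 0.0652)). It was called lower in both arms with library totals (edgeR adjusted p = 0.0386 and 0.00338), and lower without mASO Scrbl replicate 2 in the mASO arm (edgeR adjusted p = 0.0165). Of the contact system, which starts clotting on surfaces and releases bradykinin, Klkb1 had the largest rise of any member in either arm. Klkb1 encodes plasma prekallikrein and was at 19.8, 57.7 and 22.7 CPM in siSTAT3 against 2.39, 1.58 and 5.43 CPM in siCntrl, and at 41.002, 13.1 and 20.2 CPM in mASO STAT3 against 1.59, 0.945 and 1.71 CPM in mASO Scrbl. Libraries within a group differed by up to several-fold, yet the groups did not overlap. Klkb1 changed by 3.41 ± 0.61 on the log2 scale in the siRNA arm (edgeR adjusted p = 0.000967) and by 4.13 ± 0.64 in the mASO arm (edgeR adjusted p = 0.000385). Its siRNA value was 4.07 without siCntrl replicate 3 and 2.76 without siSTAT3 replicate 2. Of the annotated exon bases of Klkb1, 43.2% are shared with another transcript on the same strand that has no row in the count table. F12, the factor that activates prekallikrein, rose by 1.20 and 1.18 on the log2 scale, and Kng1, the kininogen that carries bradykinin, by 1.04 and 1.31, all 4 called. F11, the next protease, was called in neither arm (0.45 and 0.62), and the ratio of Klkb1 to F11 CPM was 0.206 ± 0.145 in siSTAT3 and 0.0279 ± 0.0216 in siCntrl (SD, n = 3) and 0.161 ± 0.110 in mASO STAT3 and 0.0141 ± 0.00195 in mASO Scrbl, without overlap.

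The vitamin K-dependent proteases and factor V, which carry the cascade to thrombin, rose in both arms. F10, which cuts prothrombin, was at 852, 979.8 and 824 CPM in siSTAT3 against 282, 247 and 324 CPM in siCntrl, and at 839, 813 and 906 CPM in mASO STAT3 against 259.6, 223 and 244 CPM in mASO Scrbl. Its groups lay far apart, with log2 fold changes of 1.64 ± 0.14 (edgeR adjusted p = 1.26e-06) and 1.82 ± 0.14 (edgeR adjusted p = 5.65e-07). F2, prothrombin, rose by 0.94 and 1.17, F5, the cofactor of factor X, by 1.21 and 1.40, and F9, the protease deficient in haemophilia B, by 0.66 and 0.79, and each was called in both arms. The 2 calls of F9 were lost with library totals (edgeR adjusted p = 0.342 and 0.225). F8, the cofactor of factor IX and a product of sinusoidal endothelium, was called in neither arm. It was at 7.62, 4.55 and 11.03 CPM in siSTAT3 against 9.08, 9.05 and 8.32 CPM in siCntrl, and at 6.55, 10.99 and 6.16 CPM in mASO STAT3 against 9.59, 7.28 and 9.19 CPM in mASO Scrbl, with overlapping groups and log2 fold changes of −0.19 ± 0.28 (edgeR adjusted p = 0.612) and −0.14 ± 0.28 (edgeR adjusted p = 0.728). Vwf, von Willebrand factor, which carries factor VIII and tethers platelets, was at 3.74, 1.85 and 5.04 CPM in siSTAT3 against 11.9, 9.16 and 9.75 CPM in siCntrl, and at 5.56, 3.69 and 2.78 CPM in mASO STAT3 against 9.36, 10.5 and 12.7 CPM in mASO Scrbl. Each library labelled STAT3 lay below each control. Vwf changed by −1.54 ± 0.32 on the log2 scale in the siRNA arm (edgeR adjusted p = 0.00150) and by −1.44 ± 0.32 in the mASO arm (edgeR adjusted p = 0.00231). The paired plasma proteins were thus unequal at the mRNA level: per 100 CPM of summed endothelial markers, Vwf was 0.420 and 0.358 times its control level, without overlap, and F8 1.08 and 0.886 times, with overlap.

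None of the 3 fibrinogen chains was called in either arm. Fga, the alpha chain, was at 3647, 2524 and 3574 CPM in siSTAT3 against 4977, 5452 and 3365 CPM in siCntrl, and at 2452, 3366 and 3197 CPM in mASO STAT3 against 3919.6, 3209.5 and 2720.3 CPM in mASO Scrbl. Fgb, the beta chain, was at 4365, 4138 and 4523 CPM in siSTAT3 against 6772, 6051 and 3633 CPM in siCntrl, and at 3058, 3908 and 3701 CPM in mASO STAT3 against 4818, 3519 and 3585 CPM in mASO Scrbl. Fgg, the gamma chain, was at 3215, 3531 and 3218 CPM in siSTAT3 against 4126, 4003 and 2598 CPM in siCntrl, and at 2823, 3042 and 3255 CPM in mASO STAT3 against 2901, 1988 and 2022 CPM in mASO Scrbl. The groups overlapped for each chain in each arm, and siCntrl replicate 3 lay below the other siCntrl libraries for all 3 chains. Log2 fold changes were −0.50 ± 0.22 (edgeR adjusted p = 0.0806) and −0.13 ± 0.22 (edgeR adjusted p = 0.671) for Fga, −0.34 ± 0.22 (edgeR adjusted p = 0.223) and −0.16 ± 0.22 (edgeR adjusted p = 0.580) for Fgb, and −0.11 ± 0.20 (edgeR adjusted p = 0.689) and 0.40 ± 0.20 (edgeR adjusted p = 0.119) for Fgg. Their 95% intervals in the siRNA arm were −0.98 to −0.02, −0.80 to 0.13 and −0.53 to 0.32, and in the mASO arm −0.60 to 0.35, −0.63 to 0.31 and −0.03 to 0.83, and all of them hold 0 except that of Fga in the siRNA arm. Fga and Fgb were called lower in both arms with library totals (−1.01 and −0.84, then −0.70 and −0.73) and in the siRNA arm without siCntrl replicate 3 (−0.68, edgeR adjusted p = 0.0261, and −0.56, edgeR adjusted p = 0.0300). Fgg was called lower in the siRNA arm with library totals (−0.61) and higher in the mASO arm without mASO Scrbl replicate 1 (0.60, edgeR adjusted p = 0.0360). Relative to Serpinc1, the antithrombin mRNA of the same cells, Fga was 1.24, 1.05 and 1.22 in siSTAT3 against 5.07, 8.77 and 3.36 in siCntrl, and 0.940, 1.21 and 1.01 in mASO STAT3 against 3.97, 3.45 and 3.16 in mASO Scrbl. This ratio of CPM values was lower in every library labelled STAT3 than in any control of its arm (exact p = 0.1 in each arm). Fgb and Fgg moved likewise against Serpinc1, to 0.254 and 0.293 times their control ratio for Fgb and to 0.294 and 0.436 times for Fgg. Serpinc1 itself was called higher in both arms (1.66 and 1.62), so these ratios also hold its rise and do not show a fall of fibrinogen. Even F2, called higher in both arms, was 0.602 and 0.734 times its control ratio to Serpinc1, without overlap. F13b, the carrier subunit of the factor that crosslinks fibrin, was called higher in both arms (0.80 ± 0.25 (edgeR adjusted p = 0.0202) and 1.13 ± 0.26 (edgeR adjusted p = 0.00312)). Its siRNA groups overlapped, and that call was lost without siCntrl replicate 2 or 3 and without siSTAT3 replicate 1 or 3 (edgeR adjusted p up to 0.0823). With library totals both calls of F13b were lost (edgeR adjusted p = 0.285 and 0.0713).

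The 250 bases before the annotated start of these genes are shown because the fibrinogen chains are textbook STAT3 targets and F7 and Mbl2 had some of the largest rises. They are RefSeq windows of build GRCm38.p6, printed 5′ to 3′ on the strand of the gene, at chr3:83025903-83026152 (plus strand) for Fga, chr3:83049864-83050113 (minus strand) for Fgb, chr3:83007474-83007723 (plus strand) for Fgg, chr8:13025784-13026033 (plus strand) for F7 and chr19:30232678-30232927 (plus strand) for Mbl2. Capitals mark matches on either strand to TTCNNNGAA, a STAT form, TTGCNNAA, a C/EBP form, and GTTAATNAT, an HNF1 form.
Fga: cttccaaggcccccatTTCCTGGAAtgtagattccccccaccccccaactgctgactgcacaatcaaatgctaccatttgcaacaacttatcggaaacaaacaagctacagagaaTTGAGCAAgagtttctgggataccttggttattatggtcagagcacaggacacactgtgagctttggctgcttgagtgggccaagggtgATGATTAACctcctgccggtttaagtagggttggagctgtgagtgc
Fgb: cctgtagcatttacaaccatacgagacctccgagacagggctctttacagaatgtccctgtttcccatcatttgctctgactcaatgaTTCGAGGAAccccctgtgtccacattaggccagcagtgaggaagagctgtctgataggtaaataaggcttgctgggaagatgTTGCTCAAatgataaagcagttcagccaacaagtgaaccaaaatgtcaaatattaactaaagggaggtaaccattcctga
Fgg: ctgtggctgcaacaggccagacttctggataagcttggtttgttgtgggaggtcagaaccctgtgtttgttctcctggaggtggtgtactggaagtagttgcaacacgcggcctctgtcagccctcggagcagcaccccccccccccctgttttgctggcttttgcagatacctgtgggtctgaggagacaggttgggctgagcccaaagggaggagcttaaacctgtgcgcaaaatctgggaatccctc
F7: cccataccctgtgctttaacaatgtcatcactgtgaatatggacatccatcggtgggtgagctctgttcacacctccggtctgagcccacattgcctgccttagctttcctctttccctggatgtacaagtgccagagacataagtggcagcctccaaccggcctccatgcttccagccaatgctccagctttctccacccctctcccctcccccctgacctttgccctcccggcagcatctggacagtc
Mbl2: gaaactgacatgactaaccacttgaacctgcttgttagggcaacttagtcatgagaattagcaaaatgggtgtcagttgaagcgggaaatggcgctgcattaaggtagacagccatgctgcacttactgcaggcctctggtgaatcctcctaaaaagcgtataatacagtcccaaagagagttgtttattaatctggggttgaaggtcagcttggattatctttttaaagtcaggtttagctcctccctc

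Fga held a STAT match at −234, a C/EBP match at −135 and an HNF1 match at −46, counted from the annotated start to the first base of the match. Fgb held a STAT match at −162 and a C/EBP match at −80, and the Fgg, F7 and Mbl2 windows held no match to these letters. Other forms of these sites were not searched, so a window without a match may still hold one. RefSeq windows were found for 39 of the 53 members, 41 windows in all. STAT letters occurred in 6 of them (Fga, Fgb, C8a, Masp2, Pros1 and F9), and in 7.02% of all 32851 windows of the same length. C/EBP letters occurred in 8 (Fga, Fgb, Plaur, F11, Klkb1, C9, C3 and F9), against 9.56% of all windows, and HNF1 letters in 3 (C4bp, F13b and Fga), against 0.737%. Fga, Fgb and F9 held both STAT and C/EBP letters, which 0.740% of all windows did. Of the STAT-matched members, Masp2 and F9 were called higher in both arms, C8a in the mASO arm alone, and Fga, Fgb and Pros1 in neither.

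Of the 4 hepatocyte-made anticoagulants, Serpinc1, Proc and Serpind1 rose in both arms and Pros1 was called in neither, and the endothelial anticoagulants Thbd and Tfpi fell. Serpinc1, antithrombin, the main inhibitor of thrombin and factor X, was at 2942, 2393 and 2918 CPM in siSTAT3 against 982, 622 and 1003 CPM in siCntrl, and at 2608, 2779 and 3151 CPM in mASO STAT3 against 986, 931 and 860.0 CPM in mASO Scrbl. All libraries labelled STAT3 lay more than 2-fold above the highest control of their arm. Serpinc1 changed by 1.66 ± 0.19 on the log2 scale in the siRNA arm (edgeR adjusted p = 1.26e-05) and by 1.62 ± 0.19 in the mASO arm (edgeR adjusted p = 1.53e-05). Of its annotated exon bases, 34.4% are shared with Zbtb37 on the other strand, a gene with 1995 counts here. Proc, protein C, which inactivates factors V and VIII, was at 834, 1059 and 836 CPM in siSTAT3 against 348, 266 and 320.4 CPM in siCntrl, and at 828, 760.2 and 839 CPM in mASO STAT3 against 282, 235 and 302 CPM in mASO Scrbl. Its groups did not overlap, with log2 fold changes of 1.55 ± 0.16 (edgeR adjusted p = 4.82e-06) and 1.57 ± 0.16 (edgeR adjusted p = 4.22e-06). Serpind1, heparin cofactor II, another thrombin inhibitor, was at 808, 696 and 877 CPM in siSTAT3 against 453, 244 and 333 CPM in siCntrl, and at 727, 680.0 and 882 CPM in mASO STAT3 against 379, 181 and 276 CPM in mASO Scrbl. It too showed no overlap, at 1.21 ± 0.26 (edgeR adjusted p = 0.00191) and 1.45 ± 0.26 (edgeR adjusted p = 0.000555). Pros1, protein S, the cofactor of protein C, was called in neither arm (−0.16 and 0.18), and with library totals it was called lower in both (−0.66 and −0.40).

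Thbd, thrombomodulin, the endothelial receptor that turns thrombin into the activator of protein C, was at 3.51, 1.34 and 3.29 CPM in siSTAT3 against 15.1, 16.5 and 13.7 CPM in siCntrl, and at 2.12, 3.73 and 2.68 CPM in mASO STAT3 against 18.04, 13.4 and 15.4 CPM in mASO Scrbl. No library labelled STAT3 came near the controls. Thbd changed by −2.47 ± 0.30 on the log2 scale in the siRNA arm (edgeR adjusted p = 2.5e-05) and by −2.45 ± 0.30 in the mASO arm (edgeR adjusted p = 2.52e-05). These are levels 5.56-fold and 5.47-fold lower. Tfpi, the inhibitor of tissue factor and factor VII, was at 5.49, 3.19 and 6.57 CPM in siSTAT3 against 9.22, 10.4 and 11.1 CPM in siCntrl, and at 5.83, 7.34 and 4.73 CPM in mASO STAT3 against 9.18, 8.21 and 10.9 CPM in mASO Scrbl. Its groups did not overlap. Tfpi changed by −1.02 ± 0.25 on the log2 scale in the siRNA arm (edgeR adjusted p = 0.00422) and by −0.66 ± 0.24 in the mASO arm (edgeR adjusted p = 0.0411). The mASO call was lost in 7 alternatives, among them the replicate block and leaving out mASO STAT3 replicate 1 or 3, mASO Scrbl replicate 1 or 3, or siCntrl replicate 2 or 3 (edgeR adjusted p up to 0.152). In these libraries both genes were also lower relative to the summed endothelial markers, whose own groups overlapped in both arms. Per 100 CPM of those markers Thbd was 1.36 ± 0.691 in siSTAT3 and 5.74 ± 0.808 in siCntrl (SD, n = 3), and 1.21 ± 0.405 in mASO STAT3 and 6.54 ± 0.817 in mASO Scrbl, while Tfpi was 0.623 and 0.628 times its control level, without overlap for either gene.

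In fibrinolysis the plasma proenzyme rose while its activators fell. Plg, plasminogen, was at 3689.9, 3752 and 3600.4 CPM in siSTAT3 against 1611, 1279 and 1690.2 CPM in siCntrl, and at 3477, 3542 and 3999.6 CPM in mASO STAT3 against 1136, 1001 and 986 CPM in mASO Scrbl. The groups were widely separated. Plg changed by 1.27 ± 0.15 on the log2 scale in the siRNA arm (edgeR adjusted p = 1.78e-05) and by 1.82 ± 0.15 in the mASO arm (edgeR adjusted p = 9.49e-07). Plat, tissue plasminogen activator, was at 1.13, 0.129 and 0.983 CPM in siSTAT3 against 13.2, 18.8 and 16.002 CPM in siCntrl, and at 1.16, 1.67 and 0.865 CPM in mASO STAT3 against 11.2, 8.80 and 17.4 CPM in mASO Scrbl. It had the lowest fold change of all members in both arms, −4.41 ± 0.52 (edgeR adjusted p = 2.57e-05) and −3.33 ± 0.48 (edgeR adjusted p = 0.000134), and siSTAT3 replicate 2 held 5 counts of it, so its low levels rest on few reads. Plau, urokinase, the other activator, was at 1.54, 2.03 and 1.44 CPM in siSTAT3 against 13.4, 20.3 and 22.4 CPM in siCntrl, and at 1.94, 2.41 and 1.31 CPM in mASO STAT3 against 16.9, 11.4 and 18.6 CPM in mASO Scrbl. Its groups lay several-fold apart, with log2 fold changes of −3.48 ± 0.29 (edgeR adjusted p = 7.85e-07) and −3.05 ± 0.28 (edgeR adjusted p = 2.02e-06). Plaur, the receptor that holds urokinase at the surface of myeloid and other cells, was at 0.678, 1.36 and 0.369 CPM in siSTAT3 against 6.37, 10.3 and 12.2 CPM in siCntrl, and at 1.18, 0.951 and 0.664 CPM in mASO STAT3 against 6.07, 7.35 and 10.9 CPM in mASO Scrbl. It fell in parallel with its ligand, at −3.57 ± 0.42 (edgeR adjusted p = 2.02e-05) and −3.13 ± 0.41 (edgeR adjusted p = 4.75e-05), and to −4.15 in the siRNA arm without siSTAT3 replicate 2. The ratio of Plau to Plaur counts overlapped between groups, at 2.56 ± 1.24 in siSTAT3 and 1.97 ± 0.128 in siCntrl (SD, n = 3), and 2.05 ± 0.453 in mASO STAT3 and 2.01 ± 0.675 in mASO Scrbl. Plat was 0.0433 and 0.0994 times its control level per summed endothelial marker, and Plaur 0.379 and 0.527 times per summed marker of monocytes and infiltrating macrophages, without overlap.

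Among the inhibitors of fibrinolysis, Serpinf2, the plasmin inhibitor alpha-2-antiplasmin, rose by 0.93 and 1.42, called in both arms, though not in the siRNA arm with library totals (edgeR adjusted p = 0.0680). Cpb2, a carboxypeptidase that protects fibrin from plasmin, was called in the mASO arm alone (0.05 ± 0.16 (edgeR adjusted p = 0.805) and 0.63 ± 0.16 (edgeR adjusted p = 0.00509)). With library totals its siRNA value turned to −0.44 and was called lower (edgeR adjusted p = 0.0221), and its mASO call was lost (edgeR adjusted p = 0.770).

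**Figure D4:**
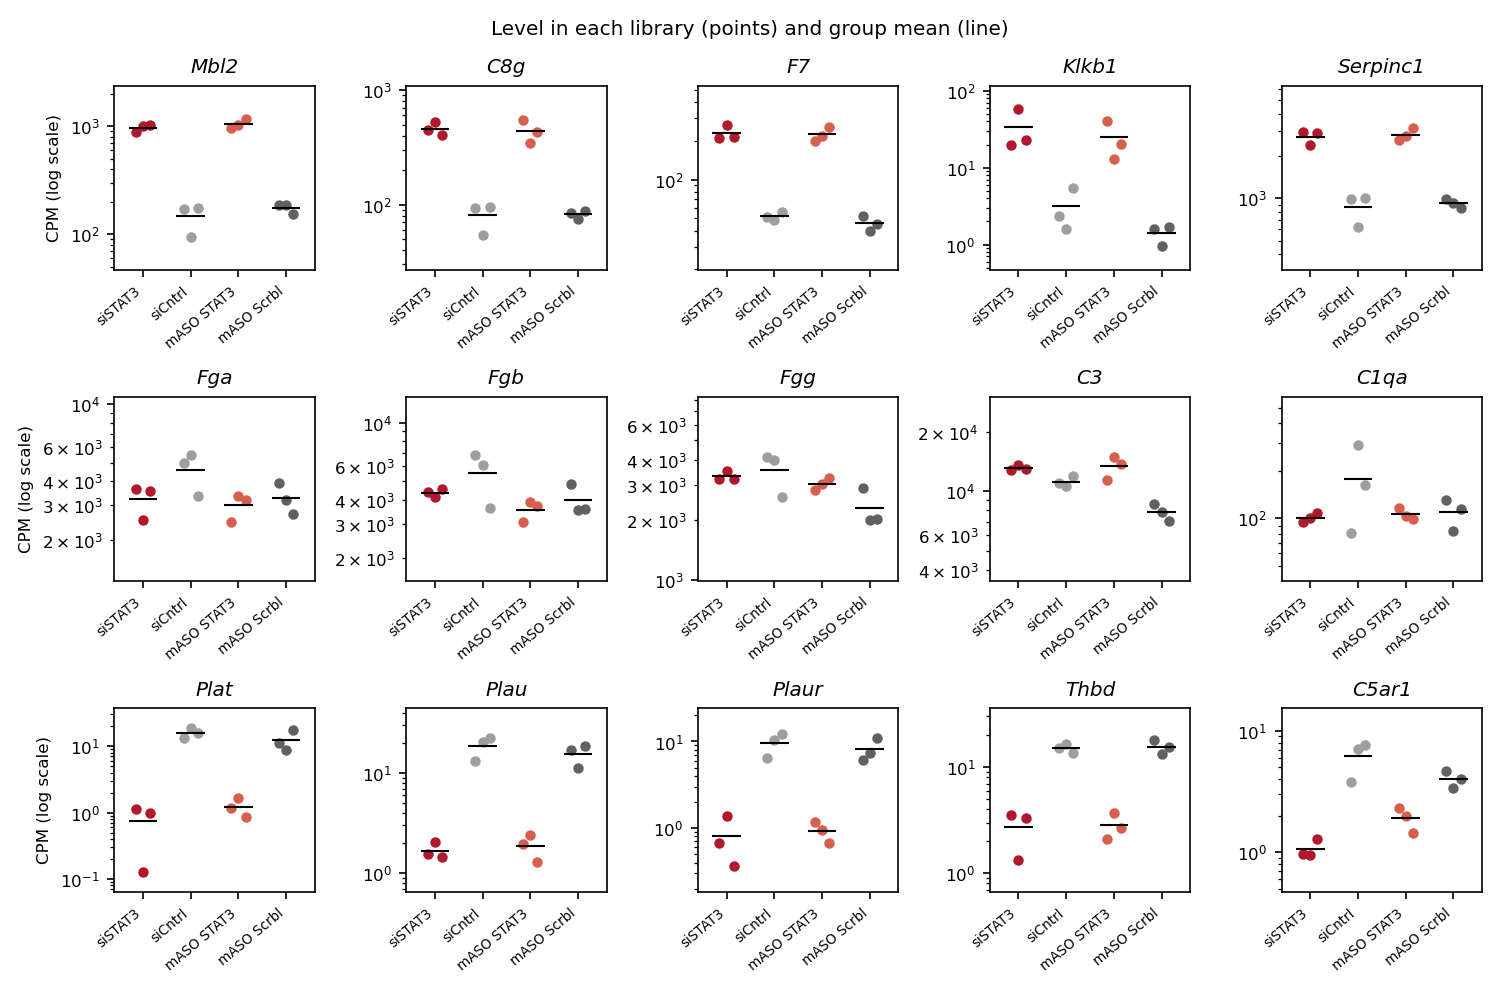
CPM in each library (points, log axis) with the group mean (line) for 15 members, the 4 groups in the order siSTAT3, siCntrl, mASO STAT3 and mASO Scrbl. Mbl2, C8g, F7, Klkb1 and Serpinc1 in the top row lie higher in both STAT3-labelled groups, Plat, Plau, Plaur, Thbd and C5ar1 in the bottom row lie lower, and in the middle row the groups overlap for Fga, Fgb, Fgg and C1qa but not for C3, whose siRNA difference was not called.

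The 2 arms were then compared with each other. The difference of the arms (mASO arm minus siRNA arm) passed for 0 of 52 members by edgeR, DESeq2 or limma voom, where 0.00636% of all tested genes passed by edgeR, and 6 members had an unadjusted p under 0.05. C5ar1 had the smallest p, having dropped by 1.08 in the mASO arm and dropped by 2.54 in the siRNA arm, with a difference of 1.46 ± 0.42 (95% interval 0.55 to 2.36, edgeR adjusted p = 0.589). The difference was 0.67 for C4bp (95% interval 0.16 to 1.18), 0.58 for Cpb2 (0.10 to 1.05) and 0.53 for C3 (0.05 to 1.01), each with an edgeR adjusted p of at least 0.640. Between the controls, mASO Scrbl over siCntrl, 0 members passed by edgeR and by limma voom, where 0.0127% of all tested genes passed by edgeR. An unadjusted edgeR p under 0.05 was found for 15 members, and the share of all tested genes at that unadjusted threshold is not given here. DESeq2 called 3 members lower in mASO Scrbl, where it called 0.38% of all genes with a DESeq2 adjusted p lower: Plg (−0.57, DESeq2 adjusted p = 0.00639), C3 (−0.53, DESeq2 adjusted p = 0.0174) and Cpb2 (−0.65, DESeq2 adjusted p = 0.0239). Point estimates were below 0 for 44 of 52 members in that comparison, without the share of all tested genes to set beside it. For 8 members the mASO Scrbl libraries lay below all siCntrl libraries, against 5.67% of all tested genes. The controls also enter both arms, so these values are not independent of the arms. Between mASO STAT3 and siSTAT3, 0 members passed by edgeR, DESeq2 or limma voom, as did 0% of all tested genes by edgeR, and 1 member had an unadjusted p under 0.05. That member was C5ar1, at 0.84 ± 0.31 (95% interval 0.18 to 1.51, edgeR adjusted p = 0.696). All log2 fold changes of members between the STAT3-labelled groups lay between −0.43 and 0.84.

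Genes of the same pathways outside the 53 were called in both directions. They are to be read against all tested genes, of which 22.4% were called higher and 23.4% lower in the siRNA arm, while the mASO arm had 21.3% higher and 22.5% lower. With library totals the shares were 10.5% and 46.2%, and 9.7% and 50.5%. Of 25 other complement genes tested, 9 were higher and 4 lower in the siRNA arm and 11 higher and 2 lower in the mASO arm, with medians of 0.35 and 0.27. With library totals these counts were 6 and 8, and 7 and 8. Hc, the mouse C5, rose by 0.95 and 0.90, and C1s, the partner protease of C1r, by 0.88 and 1.18. Itgam and Itgb2, the chains of complement receptor 3 on myeloid cells, were lower, at −3.07 and −2.31 for Itgam and −1.63 and −0.93 for Itgb2. Of 23 other clotting genes tested, 9 were higher and 9 lower in the siRNA arm and 11 higher and 8 lower in the mASO arm, with medians of −0.31 and −0.14, and with library totals 6 and 13, and 9 and 11. Vkorc1 and Ggcx, the enzymes of the vitamin K cycle on which factors II, VII, IX and X depend, rose by 2.12 and 2.40 and by 0.74 and 1.04. Anxa2 and S100a10, which form a cell-surface receptor for plasminogen, were at −4.20 and −4.21 and at −2.85 and −3.28, and F13a1, the catalytic subunit of factor XIII made by macrophages and platelets, at −5.24 and −3.20, all called lower in both arms. Procr, the endothelial protein C receptor that works with thrombomodulin, was called lower at −2.48 and −1.28.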

How the data were processed

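Liver RNA of 12 samples, extracted with TRIzol, went into stranded Illumina mRNA libraries, per the labels' protocols. All values here come from the raw gene counts that the authors deposited, which are whole and not normalized. A second deposited table of normalized values was not used. TopHat and Cufflinks are named without versions, per the submitters' processing notes. No source used here gives the build, the annotation, the counting tool or the use of strand, so reads of overlapping genes and of close copies, such as C1ra and C1rb, C4b and C4a, Kng1 and Kng2, or C4bp and its pseudogene, could not be told apart.

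One edgeR model (edgeR 4.0.16 in R 4.3.3) held all 12 libraries, with 1 coefficient for each of the 4 groups and TMM factors. Of the deposited genes, 15720 passed edgeR's expression filter by group (minimum count 10, minimum total 15) and 9820 did not. Calls come from the robust quasi-likelihood F test with Benjamini-Hochberg adjustment over all tested genes. The biological coefficient of variation was 0.247, with 8 residual degrees of freedom. The procedure was tested on simulated data. Exact two-sided permutation tests over 3 against 3 libraries were used for ratios within a library, which were added after the data were seen. Exon lengths per kilobase come from GENCODE vM21 and promoter windows from RefSeq, matched by symbol.

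The members and lists were chosen with earlier results of these data known. Every member may be named. Values by library are given for up to 12 highest and lowest called members of each arm, for the chains of C1q, C8 and fibrinogen, and for F8, chosen after its values were seen. Of the other pathway genes, those with the 8 smallest p in each direction and arm may be named, and Ggcx was chosen after its values were seen. DESeq2 (version 1.42.0), limma voom (version 3.58.1), other scalings and filters, a replicate block and leaving out each library were the alternatives. Of the pathway and marker symbols, 6 were not found under their listed names (C1s1, C1s2, Cd55b, Tf, Adgre1 and Lep).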

Additional observations from a re-analysis of the deposited data

How the results depend on the processing

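Scaling mattered most. With library totals in place of TMM factors, members called lower in the siRNA arm numbered 17 instead of 9, and the median log2 fold change of hepatocyte-made members was 0.38 instead of 0.87 in the siRNA arm and 0.57 instead of 1.15 in the mASO arm. Among values called under TMM or library totals, the signs of Cpb2 in the siRNA arm (−0.44), and of C8a (−0.11) and Pros1 (−0.40) in the mASO arm, reversed under that scaling alone. Values called under neither scaling also changed sign. The siRNA median of all members went from 0.34 to −0.14, and that of the 5 terminal components from 0.31 to −0.18. A lower share of all counts in each library labelled STAT3 follows from the construction of that alternative, which drops the TMM factors. DESeq2's Wald test called 3 members between the controls, where edgeR called 0, and the cause was not tested. Leaving out each library gave 23 to 24 members higher and 8 to 11 lower in the siRNA arm, 28 to 31 higher and 6 to 9 lower in the mASO arm, and 0 called in the difference of the arms, between the controls and between the STAT3-labelled groups. Residual correlations of libraries with the same replicate number lay between −0.238 and 0.187, and no pairing was assumed. With the replicate number as a block, 24 members were higher and 8 lower in the siRNA arm, 30 higher and 7 lower in the mASO arm, and 0 were called in the other comparisons. Leaving the 4 members with several sources out of the hepatocyte-made class left its medians at 0.87 and 1.15. Over all members and alternatives, 21 values in the siRNA arm and 23 in the mASO arm lost a call that all libraries gave with TMM, and 13 and 8 gained one. Of the lost calls in the siRNA arm, 11 were of C1qc and 5 of F13b, and in the mASO arm 7 were of Tfpi, 5 of C3ar1 and 5 of C8a. Depth limits Plat and Plaur most, with as few as 5 and 12 counts in a library, and Cfd was too low to test.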

Other observations

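Marker lists of other cells that can hold complement or clotting mRNA were read in the same way, and their part in the members' changes was not tested. Of 8 neutrophil markers, 5 were lower in the siRNA arm and 6 in the mASO arm, with a summed level of 15.2 to 47.5 CPM in siSTAT3, 51.4 to 106 in siCntrl, 19.9 to 20.5 in mASO STAT3 and 36.97 to 83.3 in mASO Scrbl. Of 10 markers of stellate cells and myofibroblasts, 8 were lower and 1 higher in the siRNA arm, and 7 lower and 2 higher in the mASO arm, and their sum was 285 to 413 CPM in siSTAT3, 1411 to 1877 in siCntrl, 407 to 487 in mASO STAT3 and 985 to 2155 in mASO Scrbl, without overlap in either arm. Acta2, the smooth muscle actin of myofibroblasts, was the lowest of that list (−6.71 and −6.45), while Reln, a stellate cell marker, was called higher in both arms (0.64 and 1.10). Of 6 tested cholangiocyte markers, 4 were lower in the siRNA arm and 3 in the mASO arm, with a sum of 95.6 to 153 CPM in siSTAT3, 555 to 1395 in siCntrl, 84.9 to 109.8 in mASO STAT3 and 602 to 1340.0 in mASO Scrbl. Spp1 stands in both the cholangiocyte and the monocyte list. Platelets and megakaryocytes gave little signal, since 4 of 8 markers could be tested, Gp6 was at 0 in 6 of 12 libraries with 9 counts in all and the sum was 5.19 to 12.6 CPM in siSTAT3, 8.50 to 16.3 in siCntrl, 6.10 to 7.80 in mASO STAT3 and 7.47 to 9.38 in mASO Scrbl. Pf4 was called lower (−2.22 and −1.20) and Gp1ba higher (1.52 and 1.25) in both arms. Adipocytes, the main source of Cfd, had 2 tested markers, both lower in both arms, with Adipoq at 0 in 9 of 12 libraries and 5 counts in all. The sum of 5 measured adipocyte markers was 7.69 to 12.1 CPM in siSTAT3, 36.2 to 66.04 in siCntrl, 10.8 to 16.3 in mASO STAT3 and 42.8 to 52.3 in mASO Scrbl. Of 5 mesothelial markers, 1 was lower in the siRNA arm and 0 in the mASO arm, with a sum of 3.11 to 27.9 CPM in siSTAT3, 16.3 to 54.4 in siCntrl, 7.999 to 25.3 in mASO STAT3 and 13.5 to 23.5 in mASO Scrbl.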
